A study of Sus scrofa with 3 samples.

Results

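The enzymes of purine salvage and of urate formation and breakdown were examined in kidney RNA of castrated male pigs given testosterone (CMT), castrated male pigs (CM) and intact male pigs (IM). The genes were chosen by symbol as APRT, HPRT1, ADA, ADK, PNP, XDH, UOX, GDA, AMPD2 and AMPD3. Of these 10, 8 had a row under their own symbol among the 34570 rows of the deposited count table, and 6 of the 8 had enough counts to be compared. GDA stood under a numbered row, for which RefSeq gave the symbol, and AMPD2 was not analysed here. All pigs were Chinese Wuzhishan Pigs, 6 to 7 months old, and all ate the same diet, rich in fat and cholesterol; they differed by castration and testosterone replacement. RNA of 3 pigs of a group was mixed before library preparation, so each group is 1 library, from 9 pigs in all. Nothing in the data shows whether a difference was shared by the 3 pigs of a pool or came from 1 of them. The comparisons ask what differs in the kidney after castration and what testosterone replacement alters in castrated pigs; the labels give neither its dose nor its duration. The spread between pigs is unknown, and p-values are not given.

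Cells rebuild purine nucleotides from free bases and nucleosides by salvage, which spares the costly synthesis from small precursors. Phosphoribosyltransferases join a base to phosphoribosyl pyrophosphate, APRT for adenine and HPRT1 for hypoxanthine and guanine, while ADK phosphorylates adenosine to AMP. In the opposite direction AMP deaminases make IMP, ADA turns adenosine into inosine, PNP releases the bases, GDA turns guanine into xanthine and XDH oxidises hypoxanthine and xanthine to urate. Most mammals, the pig among them, then oxidise urate with UOX, a liver enzyme that humans have lost, and the kidney filters urate, takes part of it back and secretes part.

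Total counts were 13601475 in CMT, 18503537 in CM and 16459771 in IM. Levels are given as CPM, counts scaled to a library of 1000000, with library sizes set by TMM, which takes them from the bulk of genes. A count of 0 allows up to 3 counts, or 0.227 CPM in CMT, 0.159 CPM in CM and 0.181 CPM in IM. A gene was compared when its mean over the libraries was at least 1 CPM, which 15472 genes met, and it was called only where its whole exact 95% interval was past 2-fold in either direction. Intervals follow folds in parentheses and, like the floor, cover counting error only. Of 14 proximal tubule markers fixed for the check, 13 were found and all 13 were compared. Their summed levels were 32820 CPM in CMT, 24444 CPM in CM and 25034 CPM in IM. Markers of the labelled tissue were thus present in each library. PCK1 alone made up 13703 CPM of the sum in CMT, 5387 CPM in CM and 6824 CPM in IM. The median log2 fold of the 13 in CMT over CM was -0.04, but the markers were not all level. Of the 13, 2 were called higher in CMT than in CM, PCK1 among them by 2.54-fold (2.52 to 2.56). In CM against IM 1 was called lower. Of all compared genes 2.95% were called in either direction in CMT against CM and 2.71% in CM against IM. No lengths of transcripts were used, so levels are compared between libraries and not between genes.

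APRT was the one enzyme of the 6 that was called. It had 10 counts in CMT, 206 in CM and 30 in IM, which is 0.756 CPM in CMT, 10.9 CPM in CM and 1.81 CPM in IM. The library of castrated pigs without testosterone stood above both others. APRT, which salvages adenine to AMP, exceeded its IM level in CM by 6.01-fold (4.09 to 9.14) and in CMT was 14.4-fold lower than in CM (7.69 to 30.5). CMT also lay below IM, by 2.40-fold (1.14 to 5.50), but this interval did not clear 2-fold and APRT was not called there. With 30 counts in IM the rule could have called it lower in CMT only from 5.995-fold. Thus 1 of 6 enzymes was called higher in CM than in IM, where 1.20% of all compared genes were, and 1 of 6 was called lower in CMT than in CM, where 1.11% of all compared genes were. Of the 15472 genes, APRT held rank 53 from the highest log2 fold of CM over IM and rank 10 from the lowest of CMT over CM. The comparisons with CM share that library, so its 206 counts enter both folds. APRT was already known from earlier results of these data to differ between CMT and CM, and its values are given as a description.

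**Figure D1:**
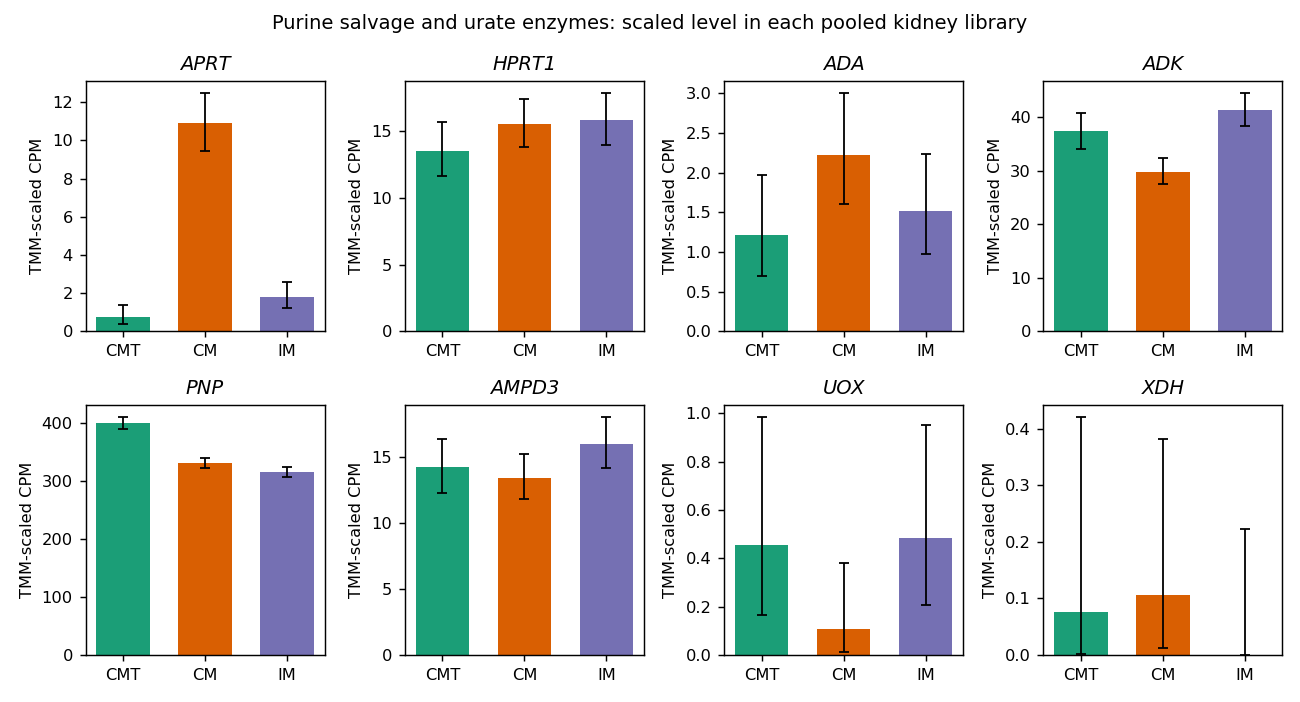
TMM-scaled CPM (vertical axes, each from 0) of 8 enzymes in the libraries of CMT, CM and IM pigs; bars are the single library of each group and whiskers the exact 95% Poisson interval of its count. APRT stands at 0.756 CPM in CMT, 10.9 CPM in CM and 1.81 CPM in IM, while HPRT1 lies between 13.5 and 15.8 CPM in all 3 libraries.

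Ratios within a library need no scaling. For each 100 counts of HPRT1 in the same library there were 5.59 counts of APRT in CMT (2.63 to 10.52), 70.1 in CM (58.4 to 84.0) and 11.5 in IM (7.57 to 16.7). Per 100 counts of ADK the number was 2.02 in CMT (0.965 to 3.75), 36.5 in CM (31.0 to 42.9) and 4.39 in IM (2.94 to 6.32). Per 100 counts of AMPD3 it was 5.32 in CMT (2.51 to 10.001), 81.1 in CM (67.2 to 97.9) and 11.3 in IM (7.49 to 16.55). Per 100 counts of PNP it was 0.189 in CMT (0.0904 to 0.347), 3.29 in CM (2.85 to 3.78) and 0.574 in IM (0.387 to 0.820). In each of these ratios the interval of CM lay above those of CMT and IM. All of them rest on the same APRT counts and are not separate observations. The intervals of CMT and IM overlapped for HPRT1, ADK and AMPD3, while for PNP that of CMT lay below that of IM. A ratio within a library shows unequal change of the pair and does not say which gene changed.

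**Figure D2:**
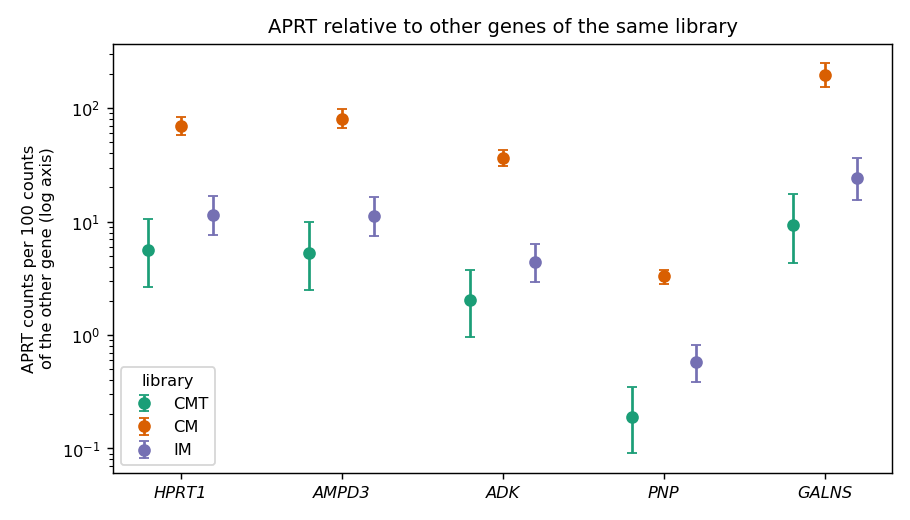
APRT counts per 100 counts of another gene of the same library (vertical log axis) for HPRT1, AMPD3, ADK, PNP and GALNS, in CMT, CM and IM; whiskers are exact 95% intervals of counting error. For every gene shown the CM point lies above the CMT and IM points, for PNP at 0.189 counts in CMT, 3.29 in CM and 0.574 in IM.

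The rows next to APRT were looked at because the strand setting of the counting is unknown and reads of adjoining genes might be shared. In RefSeq's gene order GALNS, a lysosomal sulfatase gene, and CDT1, a DNA replication licensing gene, lie on either side of APRT; both were chosen after APRT's values were seen. GALNS had 108 counts in CMT, 106 in CM and 124 in IM, and its level in CM was below that in IM by 1.34-fold (1.02 to 1.75). CDT1 had 8 counts in CMT, 10 in CM and 14 in IM and was too low to compare.

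HPRT1, the other phosphoribosyltransferase, had 179 counts in CMT, 294 in CM and 262 in IM. Its levels were 13.5 CPM in CMT, 15.6 CPM in CM and 15.8 CPM in IM, and the folds of all 3 pairs had intervals that included 1. The ratio of CM to IM was 0.983 (0.829 to 1.17), that of CMT to CM 0.870 (0.718 to 1.05) and that of CMT to IM 0.855 (0.703 to 1.04). At its depth the rule could have called HPRT1 in CM against IM from 2.31-fold upward and from 2.49-fold downward. Any smaller change was not detectable by this rule, and the intervals bound the measured ratios for these pools.

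ADK, which returns adenosine to AMP, was lowest in CM. It had 494 counts in CMT, 564 in CM and 684 in IM, or 37.3 CPM in CMT, 29.8 CPM in CM and 41.3 CPM in IM. CM lay below IM by 1.38-fold (1.24 to 1.55) and CMT above CM by 1.25-fold (1.11 to 1.41). Both intervals excluded 1 but stayed within 2-fold, so ADK was not called. Between CMT and IM the ratio was 0.903 (0.803 to 1.02). CM was thus the lowest library for ADK, whereas it was the highest for APRT.

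Of the enzymes that break nucleotides down, PNP, which splits inosine and guanosine into base and ribose phosphate, had the most counts and the narrowest intervals. It had 5300 counts in CMT, 6266 in CM and 5231 in IM, or 400.4 CPM in CMT, 331 CPM in CM and 316 CPM in IM. PNP stood highest in the testosterone-treated pool, by 1.21-fold over CM (1.16 to 1.25) and by 1.27-fold over IM (1.22 to 1.32). CM exceeded IM by 1.05-fold (1.01 to 1.09). None of these folds came near the 2.07-fold that the rule could have called upward at this depth. PNP and APRT were the enzymes whose 3 intervals all excluded 1, for PNP with folds far smaller than those of APRT.

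ADA, the deaminase of adenosine, is best known for its abundance in lymphocytes and was scarcely counted. It had 16 counts in CMT, 42 in CM and 25 in IM, or 1.21 CPM in CMT, 2.22 CPM in CM and 1.51 CPM in IM. Like APRT it was highest in CM and lowest in CMT, but with wide intervals. CMT was below CM by 1.84-fold (1.01 to 3.50), CM was above IM by 1.47-fold (0.876 to 2.52), and the ratio of CMT to IM was 0.801 (0.399 to 1.56). With 25 counts in IM the rule could not have called ADA higher in CM under 3.15-fold or lower under 5.71-fold.

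The summed level of lymphocyte markers was also highest in CM. The 12 genes of that list, all of which had counts, summed to 64.5 CPM in CMT, 174 CPM in CM and 59.4 CPM in IM, and without IGJ, the joining chain of secreted antibodies, to 42.8 CPM in CMT, 72.6 CPM in CM and 43.3 CPM in IM. Of the 10 that could be compared, 9 had a log2 fold above 0 in CM over IM and 9 below 0 in CMT over CM. Past 2-fold, 2 were called higher in CM than in IM (IGJ and MZB1), where 1.20% of all compared genes were, and 3 were called lower in CMT than in CM (IGJ, CD247 and CD79A), where 1.11% were. Leaving IGJ aside, 8 of the 9 compared were highest in CM, and the exception was CD3E, a T-cell receptor subunit, with 5.52 CPM in CMT, 4.76 CPM in CM and 5.38 CPM in IM. Their part in the levels of APRT and ADA was not tested. In such bulk RNA, fewer cells of a type and less RNA per cell cannot be told apart.

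AMPD3, an AMP deaminase known in humans as the red cell form, had 188 counts in CMT, 254 in CM and 265 in IM, or 14.2 CPM in CMT, 13.4 CPM in CM and 16.0 CPM in IM. All 3 ratios had intervals that included 1, the one of CM to IM by a narrow margin at 0.840 (0.704 to 1.001). The ratio of CMT to CM was 1.06 (0.871 to 1.28) and that of CMT to IM 0.887 (0.732 to 1.07). Red blood cell markers summed to 182 CPM in CMT, 141 CPM in CM and 122 CPM in IM, with EPB42 and AHSP, 2 of the 7 found, at 0 in every library. AMPD1, the muscle form, had 8 counts in CMT, 1 in CM and 6 in IM and was too low to compare.

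**Figure D3:**
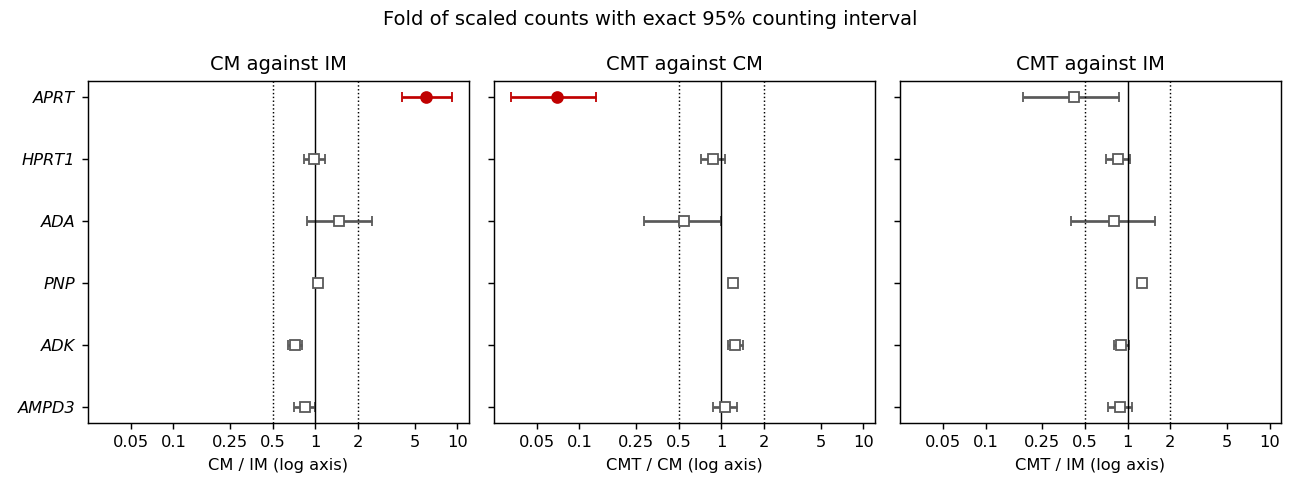
Fold of scaled counts (horizontal log axes) of the 6 compared enzymes for CM over IM, CMT over CM and CMT over IM; whiskers are exact 95% intervals, dotted lines mark 2-fold either way, and filled red circles mark calls. APRT is the one gene called, at 6.01-fold in CM over IM and at 14.4-fold lower in CMT than in CM. The points of the other 5 lie within 2-fold, while the intervals of ADA reach past 2-fold in each comparison.

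The enzymes that make and remove urate were at the limit of detection. XDH, the last step to urate, had 1 count in CMT, 2 in CM and 0 in IM, so all libraries were at or under the floor of 3 counts and no fold is given. UOX had 6 counts in CMT, 2 in CM and 8 in IM, or 0.453 CPM in CMT, 0.106 CPM in CM and 0.483 CPM in IM. The ratio of CMT to CM was 4.28 (0.766 to 43.4), that of CM to IM 0.219 (0.0227 to 1.10) and that of CMT to IM 0.938 (0.268 to 3.08), and each interval included 1. The row looked up as GDA had 0 counts in all 3 libraries, so that its level was under the floor of 3 counts in each.

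Liver genes, which UOX is counted among, were present in these kidney libraries and were not level between them. The 13 liver markers found summed to 704 CPM in CMT, 444 CPM in CM and 813 CPM in IM. ALB, serum albumin, had 404 counts in CMT, 24 in CM and 1952 in IM, and APOC3, an apolipoprotein, had 307 in CMT, 1591 in CM and 249 in IM. Their part in the few counts of UOX was not tested.

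The 6 compared enzymes had no common direction when CM was set against either other library. In CM against IM their median log2 fold was 0.02, with 3 above 0 and 3 below, beside a median of -0.01 over all compared genes. In CMT against CM the median log2 fold was -0.06, again with 3 above and 3 below, beside -0.004 over all compared genes. In CMT against IM it was -0.20 with 1 above and 5 below, beside -0.01 over all compared genes, and 0 of 6 were called, where 0.905% of all compared genes were called higher and 0.595% lower. Intervals that excluded 1, without the demand of 2-fold, were found for 3 of 6 enzymes in CM against IM, beside 44.4% of all compared genes, for 4 of 6 in CMT against CM, beside 41.7%, and for 2 of 6 in CMT against IM, beside 35.3%.

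**Figure D4:**
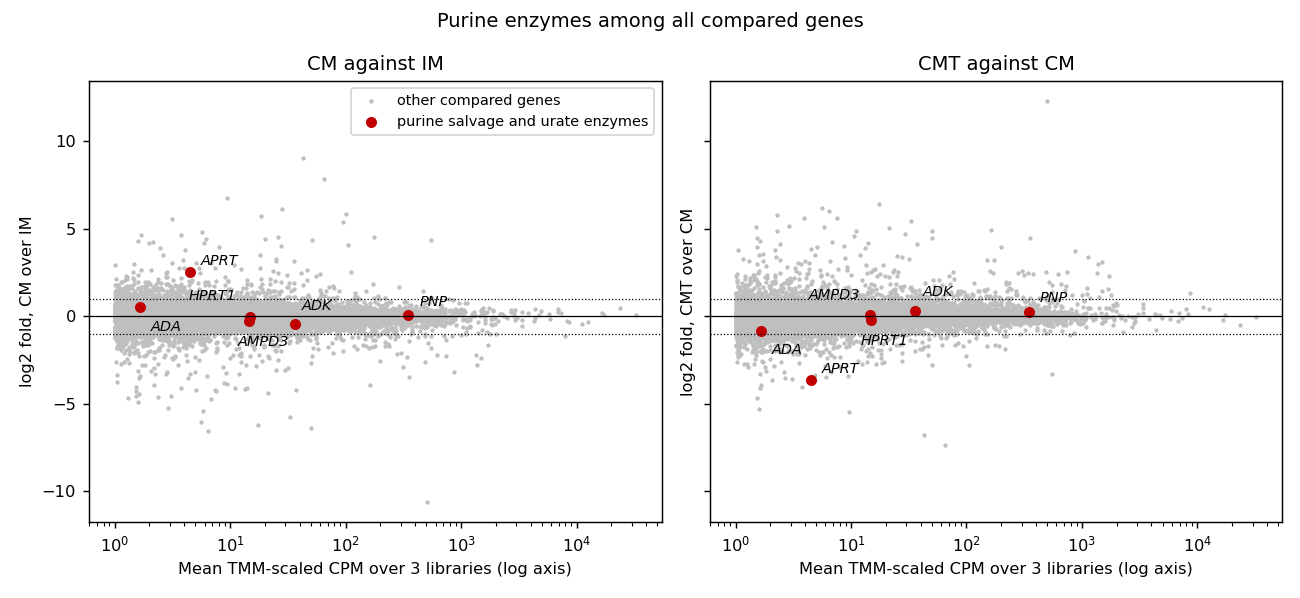
Log2 fold (vertical axes) against mean TMM-scaled CPM (horizontal log axes) of the 15472 compared genes for CM over IM and for CMT over CM; red points are the 6 compared enzymes and dotted lines mark 2-fold either way. APRT lies at a log2 fold of 2.51 in CM over IM and of -3.65 in CMT over CM, outside the band where the other 5 enzymes lie.

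The rest of purine and urate metabolism was described by 8 lists of 72 genes. Of these, 63 were found, 7 of them through symbols that RefSeq gave for numbered rows, and 50 were compared. Castrated against intact pigs gave 1 higher and 0 lower of the 50, CMT against CM gave 1 higher and 1 lower, and CMT against IM gave 1 higher and 0 lower. The share of all compared genes called in either direction was 2.71% when CM was set against IM and 2.95% when CMT was set against CM, and 0.905% were called higher in CMT than in IM. These calls fell on SLC5A8 and MOCOS.

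The 8 genes of purine synthesis from small precursors were all compared and none was called. In CMT against CM all 8 had a log2 fold below 0, with a median of -0.20. Of all compared genes 50.7% lay below 0 there. The intervals of PRPS2 and PAICS included 1. Under total-count scaling and DESeq2 size factors the number below 0 was also 8. A change of scaling moves all genes almost equally, so these repeats are no separate support. PRPS2, which makes phosphoribosyl pyrophosphate, the shared substrate of APRT and HPRT1, had 110.0 CPM in CMT, 114 CPM in CM and 110.2 CPM in IM. ADSL, adenylosuccinate lyase, had 83.3 CPM in CMT, 93.4 CPM in CM and 96.4 CPM in IM. PFAS, an amidotransferase named after its values were seen, was highest in CM, with 4.16 CPM in CMT, 6.93 CPM in CM and 3.93 CPM in IM, and lay above IM there by 1.77-fold (1.30 to 2.41).

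The 8 genes that lead from IMP to AMP and GMP had 0 calls in each comparison. In CMT against CM 7 of these 8 had a log2 fold below 0, with a median of -0.16, beside 50.7% of all compared genes below 0. The intervals of IMPDH1, GMPS and ADSS included 1. GMPR2, a GMP reductase, had 147 CPM in CMT, 163 CPM in CM and 163 CPM in IM. GUK1, guanylate kinase, had 98.6 CPM in CMT, 106 CPM in CM and 103 CPM in IM. Of nucleotidases and nucleoside kinases 13 of 20 were compared, with 0 calls. AK3, an adenylate kinase family member of mitochondria, had 101 CPM in CMT, 107 CPM in CM and 139 CPM in IM.

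Among 3 compared nucleoside transporters none was called. SLC29A1, the equilibrative transporter of the cell surface, had 53.4 CPM in CMT, 46.4 CPM in CM and 52.6 CPM in IM. SLC29A2, its relative, had 6 counts in CMT, 31 in CM and 3 in IM and missed the filter. It is named here after its values were seen because, with no filter, it was called higher in CM than in IM at a ratio of 9.05 (2.82 to 46.3). Of the adenosine receptors 3 of 4 were compared and 0 called. ADORA3 had 8.01 CPM in CMT, 4.87 CPM in CM and 4.47 CPM in IM, and ADORA2A had 3.10 CPM in CMT, 5.03 CPM in CM and 4.17 CPM in IM.

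Of 12 genes found of the urate transport list, 9 were compared and 1 was called. The list also holds monocarboxylate transporters, and the call fell on 1 of these, not on a known carrier of urate. SLC5A8, a sodium-coupled monocarboxylate transporter of the brush border, had 31 counts in CMT, 489 in CM and 2 in IM. It was higher in CM than in IM, at a ratio of 214 (59.0 to 1773) on 2 counts, lower in CMT than in CM by 11.04-fold (7.68 to 16.4), and higher in CMT than in IM at a ratio of 19.4 (4.93 to 167). SLC22A12, the urate-anion exchanger URAT1, named for its function with its values known, had 16464 counts in CMT, 16039 in CM and 16557 in IM. Its level was 1244 CPM in CMT, 848 CPM in CM and 1000.0 CPM in IM, and CMT exceeded CM by 1.47-fold (1.434 to 1.498), short of a call. SLC22A8 and ABCG2, an organic anion transporter and a urate exporter added after their values were seen, lay the other way. SLC22A8 had 2472 CPM in CMT, 3247 CPM in CM and 2830 CPM in IM, lower in CMT than in CM by 1.31-fold (1.30 to 1.33), and ABCG2 had 9.75 CPM in CMT, 14.8 CPM in CM and 14.3 CPM in IM, lower by 1.52-fold (1.23 to 1.89). Neither was called. The row looked up as SLC2A9, a urate transporter of the basolateral side named on the same ground, had 0 counts in CMT, 2 in CM and 0 in IM.

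Genes of the molybdenum cofactor, which XDH needs, included the remaining call. MOCOS, the sulfurase that activates the cofactor in XDH, had 58 counts in CMT, 25 in CM and 68 in IM. It was higher in CMT than in CM by 3.31-fold (2.04 to 5.53), and it lay below IM in CM by 3.11-fold (1.94 to 5.13), just short of a call. The call in CMT against CM was lost with total-count scaling, whose intervals no longer cleared 2-fold. MOCS1, which takes the first step of cofactor synthesis and is named after its values were seen, had 2674 counts in CMT, 1846 in CM and 3187 in IM. CMT exceeded CM by 2.07-fold (1.95 to 2.20) for this gene, again without clearing 2-fold. By log2 fold, 5 of 6 compared genes of that list lay lower in CM than in IM, beside 50.7% of all compared genes. For CMT, 5 of 6 lay higher than in CM, beside 49.3% of all compared genes. Both comparisons share the CM library. These counts were the same with total-count scaling and with DESeq2 size factors, which is no separate support. SUOX, an oxidase named after its values were seen, was the exception each time. It had 325 counts in CMT, 692 in CM and 587 in IM. Its level was lower in CMT than in CM by 1.49-fold (1.30 to 1.71), short of a call. The ratio of CM to IM was 1.03 (0.924 to 1.15). After urate, ALLC had 0 counts in every library and URAD, from a looked-up row, had 0 in CMT, 2 in CM and 0 in IM, so that neither could be compared.

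**Figure D5:**
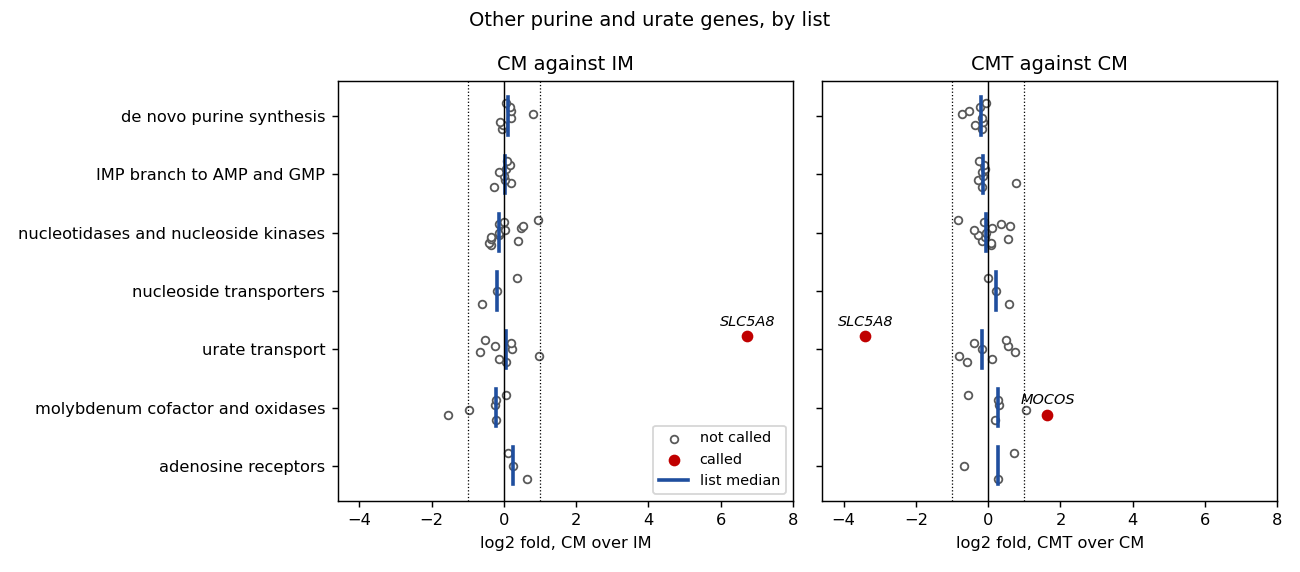
Log2 fold (horizontal axes) of the 50 compared genes of purine and urate metabolism outside the 10 enzymes, by list, for CM over IM and for CMT over CM; circles are genes, filled red where called, blue bars are list medians and dotted lines mark 2-fold either way. SLC5A8 lies at a log2 fold of 6.74 in CM over IM and of -3.40 in CMT over CM, and MOCOS at 1.64 in CMT over CM; the other genes were not called.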

How the data were processed

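The authors deposited raw counts per gene, 1 column a pool, made from kidney RNA extracted with TRIzol, pooled within a group and prepared with an Ion Torrent total RNA kit, per the labels' protocols. FastQC is the 1 tool named, per the submitters' processing notes. No source used here names the aligner, counting program, strand setting, build or annotation, so reads of overlapping or near-identical genes may be shared, and no coordinates or sequences are printed. The design text names another sequencer and triplicates; 3 columns of counts were used, and 1 unnamed column was not.

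TMM factors of 0.973 in CMT, 1.02 in CM and 1.01 in IM came from edgeR 4.0.16 in R 4.3.3, over the whole table; with 1 library a group no model was fitted. Folds are ratios of scaled counts with Clopper-Pearson intervals of the share of counts (scipy 1.17.1), and log2 folds used a prior count of 2. RefSeq's table of assembly Sscrofa11.1 gave symbols for 1556 of 19902 numbered rows. Named genes were all 10 enzymes, the called genes of each list or else its 2 most abundant, and the 3 genes nearest to each called enzyme; 1 gene that this rule took is not reported here. Members, lists and rules were chosen with earlier results of these data known. The procedure was run on simulated counts that held counting error alone, so this check does not cover differences between pigs.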

Additional observations from a re-analysis of the deposited data

How the results depend on the processing

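The limits are those of single pools: counting error is covered, differences between pigs are not. UOX and XDH missed the filter, so the rule could not call them at any fold. ADA, under 50 counts in all 3 libraries, could be called only from 2.96-fold or more. APRT, with 30 counts in IM, could be called against IM only from 3.04-fold or more. No paired analysis was possible because each group has 1 library and no test was made. With 4 other scalings, thinning to the smallest library, a 99% interval, mRNA rows alone, no filter or a 1.5-fold demand, APRT kept its calls in CM against IM and in CMT against CM. Its log2 fold ranged from 2.51 to 2.63 in CM over IM and from -3.80 to -3.64 in CMT over CM. A filter of 5 CPM removed APRT and left 0 enzymes called in both comparisons, since its mean is below that. Demanding only an interval clear of 1 gave 3 enzymes for CM over IM, 4 for CMT over CM and 2 for CMT over IM, and 25, 35 and 23 of the other purine genes in the same order.

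Among the other purine genes, CM against IM gave 2 calls with no filter (SLC29A2 added), 2 after thinning (MOCOS added) and 4 beyond 1.5-fold. CMT against CM gave 1 call with total counts, with totals without rRNA and mitochondrial genes, with a filter of 5 CPM and with a 99% interval; MOCOS was the gene lost each time. Beyond 1.5-fold, CMT against CM gave 3 calls (MOCS1 added) and CMT against IM gave 2. Of the other recomputed log2 folds, 3 left their counting interval, all of PNP in CMT against CM (0.27, and 0.20 to 0.21 with total counts, totals without rRNA and mitochondrial genes, or thinning), and none turned its sign among called values.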

Other observations

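The compared genes whose pair of log2 folds (CM over IM, CMT over CM) lay nearest to that of APRT, of 10679 with a symbol, were APOA5, GAS2L2 and IGJ. The pairs rest on 3 libraries, with CM in both folds, and say nothing of shared function. APOA5, an apolipoprotein of triglyceride metabolism known from liver, had 4 counts in CMT, 57 in CM and 9 in IM, at a distance of 0.81 on the log2 scale. GAS2L2, a cytoskeletal linker, had 58 counts in CMT, 521 in CM and 150 in IM, at a distance of 1.38. IGJ, which also stands in the lymphocyte list, had 288 counts in CMT, 1924 in CM and 267 in IM, at a distance of 1.44. That CM was the highest library for these genes follows from how they were chosen.

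Lists of other cell types gave these sums. Endothelial markers summed to 575 CPM in CMT, 576 CPM in CM and 604 CPM in IM, with 0 called in any comparison. Myeloid markers summed to 90.5 CPM in CMT, 79.3 CPM in CM and 61.7 CPM in IM, with S100A12 called higher in CMT than in CM and in IM. Muscle markers summed to 478 CPM in CMT, 86.0 CPM in CM and 235 CPM in IM, a sum that ACTC1, cardiac actin, dominated with 5506 counts in CMT, 505 in CM and 2588 in IM.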
